A study of Homo sapiens with 4 samples.

Results

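Exon inclusion and read levels were examined in 8 genes of the contractile cytoskeleton: the tropomyosins TPM1, TPM2, TPM3 and TPM4, the essential myosin light chain MYL6, the actin cross-linkers ACTN1 and ACTN4, and the caldesmon gene CALD1. The read level of TPM4 in these files was known when the genes were chosen, so all values are given as a description with no test. An event was taken when its skipped exon shares a boundary with an exon of such a gene in GENCODE release 29 (hg38). This gave 35 of 44910 listed events, on 33 of 38121 skipped exons, and 33 of the 35 events were listed in both files. The events fell in 6 of the 8 genes, since TPM2 and ACTN4 had none in the files used here. The skipped exon of each of the 35 events matched an annotated exon at both ends, and 2 MYL6 events also shared a boundary with the neighbouring gene MYL6B.

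The cells were MDA-LM2, a line selected from MDA-MB-231 breast cancer cells for growth in lung, transfected with small interfering RNAs and harvested 48 h later. SNRPB2 was targeted with a pair of independent siRNAs (siSNRPB2), and control cells received the control siRNA (siCtrl). Each group has 2 labelled libraries, and the labels do not say which library received which siRNA or that libraries came from separate cultures. SNRPB2 codes for U2B'', which belongs to the U2 snRNP of the spliceosome. Its depletion was above 95% by quantitative PCR per the labels and was not analysed here. Each group has a single deposited value for an event, so no difference can be set against a spread between replicates.

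Tropomyosins are coiled-coil dimers that lie along actin filaments and set which myosins and severing proteins can reach them. Tropomyosin genes differ in how many isoforms they make; depending on the gene, these come from alternative first exons, a mutually exclusive internal exon pair or alternative last coding exons, the last of which encode the end where neighbouring dimers overlap. MYL6 and alpha-actinin also carry exons whose use differs between muscle and other tissues, and caldesmon binds actin, myosin and tropomyosin. In non-muscle cells these proteins build stress fibres.

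Of the line's mesenchymal markers, CD44, FN1, AXL and SPARC had events (92 to 50227 reads per gene and file), while VIM and CAV1 had none. Among epithelial or luminal markers, KRT8 had 13755 reads in siCtrl and 11312 in siSNRPB2, ESR1 had 1 and 10, and CDH1, EPCAM, PGR and KRT19 had no listed event. PTPRC, a blood cell gene, had 51 and 8, and the endothelial gene PECAM1 none. The muscle genes MYH11, CNN1 and MYOCD had 27 to 56 reads in either file, TNNT1 had 3328 and 2470, and DES, ACTA1, ACTA2 and LMOD1 had no listed event. The files list annotated skipped-exon events only, so a gene with no event has no measured level.

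The exons that the results turn on are shown first, 5′ to 3′ on the sense strand, as read from GENCODE release 29 transcripts (GRCh38). Inclusion of the 45-nt exon of MYL6 replaces the end of the protein, because the exon carries its own stop codon. The stretch from its first base to that stop and the stretch that follows the same upstream exon when it is skipped are set side by side, with the stop codons in capitals. Each holds 26 coding bases before the stop, and 15 of the 26 differ.
MYL6 45-nt exon, chr12:56160626-56160654 (+): cgtttgtgaggcatatcctgtcggggTGA
MYL6 next exon, chr12:56161387-56161415 (+): agctcgtccgcatggtgctgaatggcTGA

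The internal exon pair of TPM1 is 2 exons of 76 nt that most annotated transcripts use one in place of the other (3 transcripts hold both). Capitals mark the 33 bases that differ, and 56.6% of the bases are identical.
TPM1 upstream exon, chr15:63061198-63061273 (+): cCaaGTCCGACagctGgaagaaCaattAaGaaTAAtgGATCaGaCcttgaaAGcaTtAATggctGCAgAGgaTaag
TPM1 downstream exon, chr15:63061713-63061788 (+): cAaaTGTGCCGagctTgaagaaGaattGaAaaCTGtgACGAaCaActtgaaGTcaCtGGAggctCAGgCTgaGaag

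The ACTN1 pair lies in the calcium-binding EF-hand region of alpha-actinin 1 and has 81 and 66 nt. Set base by base from the first base, 26 of 66 bases differ (capitals), and the longer exon runs on for 15 bases.
ACTN1 81-nt exon, chr14:68878989-68879069 (-): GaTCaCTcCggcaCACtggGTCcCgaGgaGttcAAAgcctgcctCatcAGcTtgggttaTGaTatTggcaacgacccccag
ACTN1 66-nt exon, chr14:68878458-68878523 (-): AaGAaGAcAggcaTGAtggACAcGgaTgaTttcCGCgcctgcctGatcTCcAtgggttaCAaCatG

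Near the 3′ end, TPM1, TPM3 and TPM4 each hold an alternative exon with a common coding start. Over the first 79 bases, 62 are shared by all 3 genes, and capitals mark the others. TPM1 and TPM3 are identical at 86.1% of these bases, TPM1 and TPM4 at 86.1%, and TPM3 and TPM4 at 83.5%.
TPM1, chr15:63064064-63064142 (+): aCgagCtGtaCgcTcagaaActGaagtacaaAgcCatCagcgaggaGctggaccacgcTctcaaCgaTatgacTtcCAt
TPM3, chr1:154169305-154169383 (-): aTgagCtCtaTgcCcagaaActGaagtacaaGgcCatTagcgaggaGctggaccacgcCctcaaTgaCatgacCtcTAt
TPM4, chr19:16095264-16095342 (+): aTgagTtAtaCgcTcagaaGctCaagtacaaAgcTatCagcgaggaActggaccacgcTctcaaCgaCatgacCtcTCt

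In TPM3 the exon that follows is shown to its stop codons, both in capitals. The annotated stop begins at base 2 in a transcript with the 79-nt exon and at base 81 in transcripts without it, so the same exon is read in different frames.
TPM3 last exon, chr1:154157639-154157721 (-): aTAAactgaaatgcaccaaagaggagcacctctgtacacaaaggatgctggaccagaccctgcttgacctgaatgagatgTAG

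The first question was whether these exons were kept in different shares of transcripts after SNRPB2 depletion. The inclusion level (ψ) is the part of transcripts in which the exon is kept, given with the authors' interval. Reads that fit only the isoform with the exon (inclusion reads) or only the one without it (skipping reads) were called informative. An exon counted as tested when both files held at least 20 such reads, on the event with the most such reads. It was called when the Bayes factor in the authors' deposited table, the evidence for a difference over none, was at least 10 and ψ differed by at least 0.1. Of the 33 exons, 24 passed the read minimum, and 1 was called, the 45-nt exon of MYL6, which was higher in siSNRPB2. No member exon was called lower. Over all 18678 tested exons, 7.12% were called higher and 7.62% lower.

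Most of the 24 tested exons lay near full or no inclusion in both files, which by itself means a small difference between the files. ψ was at least 0.95 in both files for 11 exons and at most 0.05 in both for another 11. These shares were 45.83% each, against 30.13% and 16.61% of all tested exons. The ψ difference, siSNRPB2 minus siCtrl, was exactly 0 for 16 exons and ran from -0.03 to 0.13 with a median of 0, which was also the median of all tested exons. The 24 exons had a median of 834 informative reads in siSNRPB2 and 1377 in siCtrl, against 137 and 158 over all tested exons. The shares above therefore compare exons of unlike depth. Some exons overlap and share reads: the 108-nt exon of MYL6 lies within the 144-nt one, and the 65-nt exon of TPM3 and the 94-nt exon of TPM4 lie within longer forms. The plot of inclusion levels shows the 2 exons outside these ranges, in MYL6 and CALD1.

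**Figure D1:**
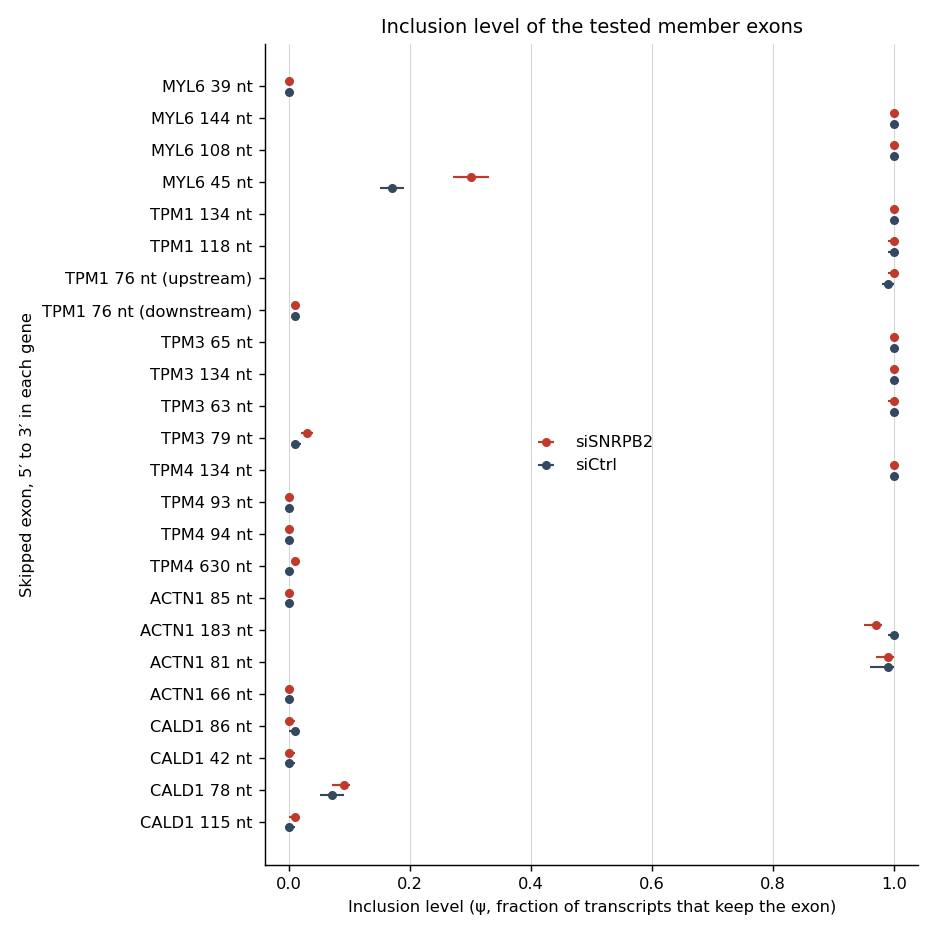
Inclusion level (ψ, x axis) of the 24 tested exons in siSNRPB2 (red) and siCtrl (blue), listed 5′ to 3′ within each gene; points are the authors' posterior means and lines their intervals, 1 value per group. The MYL6 45-nt exon, at 0.30 and 0.17, is the exon whose values lie farthest apart.

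MYL6 encodes the essential light chain that sits on the lever arm of smooth muscle and non-muscle myosin II. Its 45-nt exon, at chr12:56160626-56160670, had ψ 0.30 in siSNRPB2 (interval 0.27 to 0.33) and 0.17 in siCtrl (0.15 to 0.19), and the intervals did not overlap. There were 365 inclusion and 157 skipping reads in siSNRPB2, against 277 and 365 in siCtrl. Inclusion reads therefore made up 69.9% of informative reads (exact 95% interval 65.8 to 73.8) and 43.1% (39.3 to 47.1). The Bayes factor in the authors' deposited table was 1e+12, the largest value that occurs there. The ψ difference of 0.13 became 0.26 when it was taken from informative reads alone with inclusion reads halved, and no call was left when a difference of at least 0.2 was required. Inclusion reads were 69.9% of informative reads where ψ was 0.30, so the level also depends on the measure. Reads that fit neither isoform were 82.4% of the event's reads in siSNRPB2 and 84.2% in siCtrl. Exact intervals here and below cover counting error only, since reads without molecular identifiers are not independent molecules.

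The other MYL6 exons did not differ in this way. The 144-nt coding exon upstream had ψ 1.00 in both files, with 7699 inclusion reads in siSNRPB2, 9889 in siCtrl and no skipping read. A 39-nt non-coding exon had ψ 0.00 in both files, on 106 and 123 skipping reads. Another 3 exons fell under the read minimum: the 36-nt exon with 10 and 12 informative reads, the 125-nt exon with 0 and 19, and the 77-nt exon with 6 and 11. Their ψ values in siSNRPB2 and siCtrl were 0.01 and 0.01, 0.00 and 0.01, and 0.31 and 0.22, the last with intervals of 0.13 to 0.55 and 0.11 to 0.36.

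In TPM1 the internal exon pair gave like values in both files. The downstream exon had ψ 0.01 in each, with 64 inclusion and 3840 skipping reads in siSNRPB2 and 72 and 4315 in siCtrl. Inclusion reads were 1.64% of informative reads (1.26 to 2.09) and 1.64% (1.29 to 2.06). Its skipping reads join the upstream exon to the next common exon, and the upstream exon, in an event whose next exon is the downstream one, had ψ 1.00 and 0.99, with 700 and 624 inclusion reads and 0 and 1 skipping reads. The 134-nt and 118-nt exons, each found in 23 annotated transcripts, had ψ 1.00 in both files and no skipping read. A 126-nt exon at chr15:63044027-63044152 had no informative read in either file, and 2 TPM1 events just upstream of it (363 and 126 nt) were listed in siSNRPB2 alone, with 1 compatible read each.

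At the alternative 3′ exons of the 3 tropomyosin genes more inclusion reads were counted in siSNRPB2, although no exon was called. The TPM3 79-nt exon had 23 inclusion and 248 skipping reads in siSNRPB2 against 12 and 504 in siCtrl. That is 8.49% of informative reads (5.46 to 12.5) and 2.33% (1.21 to 4.03), while ψ was 0.03 and 0.01 and the Bayes factor was 0.82 in the authors' deposited table. In TPM4 the 630-nt form of this exon had 72 inclusion and 798 skipping reads in siSNRPB2 against 24 and 1308 in siCtrl. Its share was 8.28% (6.53 to 10.3) and 1.80% (1.16 to 2.67), with ψ 0.01 and 0.00. In the authors' deposited table the Bayes factor was 0.

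The 94-nt form of the TPM4 exon, which has the same 3′ splice site, had no inclusion read in either file. Reads that fit neither isoform numbered 3917 and 6538 for the 94-nt form and 3845 and 6514 for the 630-nt form. These counts differ by exactly the inclusion reads of the longer form, 72 and 24. Those reads therefore fit the stretch past the end of the 94-nt form, which is intron in transcripts with that form, and retained intron and the longer exon cannot be told apart in them. In TPM1 the 127-nt form had 17 inclusion reads in siSNRPB2 and 6 in siCtrl, under the read minimum, with ψ 0.34 (0.19 to 0.54) and 0.17 (0.06 to 0.32). The 79-nt form had 2 and 0. Reads that fit neither isoform numbered 952 and 1078 for the 79-nt form and 937 and 1072 for the 127-nt form. Most inclusion reads of the 127-nt form therefore also fit past the end of the shorter form. These 3 genes were set side by side after their values were seen.

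**Figure D2:**
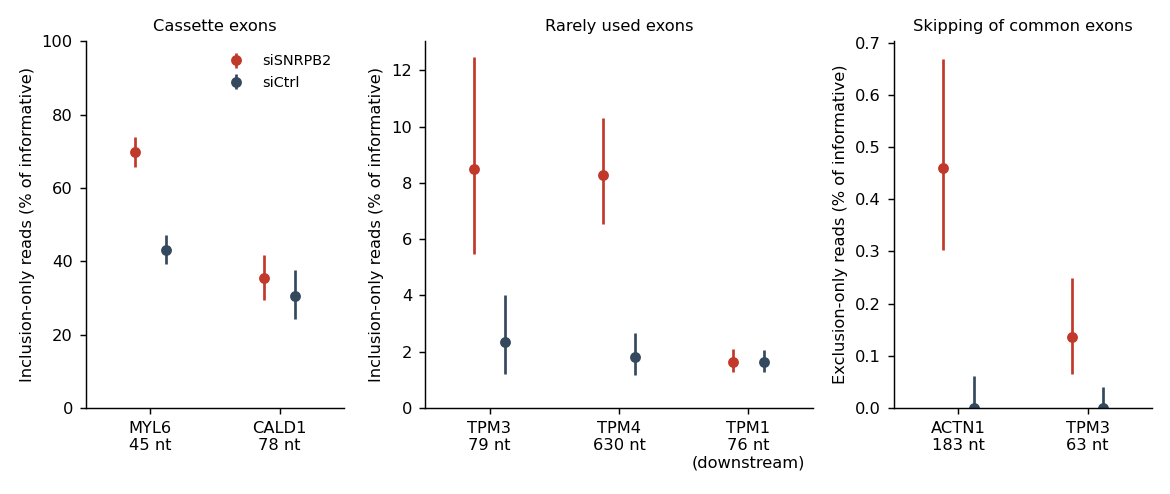
Share of informative reads (y axis, percent) in siSNRPB2 (red) and siCtrl (blue), with exact 95% intervals that cover counting error only; the left and middle panels give inclusion reads and the right panel skipping reads, each panel on its own scale. The intervals of the MYL6, TPM3 79-nt, TPM4, ACTN1 and TPM3 63-nt exons do not overlap between files, and those of CALD1 and TPM1 do.

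The common internal exons of TPM3 and TPM4 stayed near full inclusion. The 134-nt exon had ψ 1.00 in both files in each gene, with 9516 inclusion reads in siSNRPB2 and 12634 in siCtrl for TPM3, and 22934 and 49106 for TPM4. Skipping reads there numbered 1 and 1 in TPM3 and 0 and 0 in TPM4. The 63-nt exon of TPM3, at chr1:154170649-154170711, had 10 skipping reads in siSNRPB2 beside 7363 inclusion reads, and 0 in siCtrl beside 9164. The 93-nt exon of TPM4 was skipped in both files (0 inclusion reads, against 791 and 1422 skipping).

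ACTN1 used the 81-nt exon of its pair in both files. That exon had ψ 0.99 in each, with 1428 inclusion reads in siSNRPB2 and 1496 in siCtrl and no skipping read. The 66-nt exon had ψ 0.00 in both, with no inclusion read and 750 and 686 skipping reads. A count of 0 of 686 informative reads, taken as 3 counts, allows a share of up to 0.437% in siCtrl (exact upper limit 0.536%). A further event of the 81-nt exon, whose downstream neighbour is the unused 66-nt exon, gave ψ 0.67 and 0.74 with overlapping intervals (0.62 to 0.73 and 0.68 to 0.80). An 85-nt exon found in a single non-coding transcript had no inclusion read (301 and 407 skipping).

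A coding ACTN1 exon of 183 nt, at chr14:68882873-68883055, was skipped in a small share of reads in siSNRPB2. It had 27 skipping and 5839 inclusion reads in siSNRPB2, which is 0.46% (0.30 to 0.67), against 0 and 6115 in siCtrl. The count of 0 allows up to 0.0491% when taken as 3 counts, and the exact upper limit was 0.0603%. The ψ of this exon was 0.97 (0.95 to 0.98) and 1.00 (0.99 to 1.00). The Bayes factor in the authors' deposited table was 1e+12, but the difference of -0.03 missed the minimum. Over the 11 member exons near full inclusion (0.95 or more in both files), skipping reads summed to 39 in siSNRPB2 and 3 in siCtrl, where a read of overlapping exons counts under each; 27 and 10 of the 39 came from the ACTN1 183-nt and TPM3 63-nt exons. With at least 10 such reads in 1 file and none in the other, 2 of the 11 were found in siSNRPB2 alone and 0 in siCtrl alone. Among all 5628 such exons the shares were 0.959% and 1.03%, and skipping reads summed to 6216 in siSNRPB2 and 6170 in siCtrl. Those sums were 0.112% and 0.0971% of informative reads. The shares are not matched for depth. The 2 member exons had 5866 and 7373 informative reads in siSNRPB2, against a median of 137 over all tested exons, so 10 reads are reached more easily in them. This minimum of 10 reads was set after the values were seen.

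CALD1 encodes caldesmon, and its 78-nt exon, at chr7:134935688-134935765, had a low ψ in both files. ψ was 0.09 (0.07 to 0.10) in siSNRPB2 and 0.07 (0.05 to 0.09) in siCtrl, with 86 inclusion and 157 skipping reads against 61 and 138. Inclusion reads were 35.4% (29.4 to 41.8) and 30.7% (24.3 to 37.6) of informative reads, so a difference was not detectable at this depth. These shares, with inclusion reads not halved, lie above ψ, and 5262 and 4634 reads fit both isoforms. The level of inclusion therefore depends on the measure. The 86-nt, 42-nt and 115-nt exons of CALD1 had ψ of 0.00 to 0.01 in either file, with 94 to 188 skipping reads and at most 1 inclusion read. The 37-nt exon had 6 informative reads in siSNRPB2 and 24 in siCtrl and was not tested.

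The second question was how much RNA of each gene was present. Reads compatible with either isoform on the deepest event of a gene served as a proxy, scaled to the file's total of 16323088 reads in siSNRPB2 and 18442922 in siCtrl over 1 event per gene. In bulk RNA, fewer expressing cells and less RNA per cell cannot be told apart. TPM4 was lower in siSNRPB2: 27273 reads against 57368, or 1671 and 3111 RPM (reads scaled to a common total). Its log2 ratio was -0.90 (95% interval -0.92 to -0.88, counting error only), 1.86-fold lower. In the 3341 protein-coding genes that averaged 1000 reads or more, where the log2 ratio had an SD of 0.26 over genes, it was at rank 10 from the lowest. Of the 253 genes with at least 10000 reads, 1 lay lower, CKAP4 (-0.91). Being at least 1.5-fold lower was met by 1 of the 6 members and by 1.44% of the 3341 genes; being at least 1.5-fold higher was met by 0 members and by 1.86% of the genes.

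The lower level of TPM4 was seen along the gene. Its 4 events had log2 ratios from -0.90 to -0.65 (median -0.78), and the ratio was -0.82 with reads summed over all events. Skipping reads of the 93-nt exon, which join its flanking exons, were 791 in siSNRPB2 and 1422 in siCtrl. Reads that fit neither isoform, such as intronic reads, were lower as well, with log2 ratios from -0.83 to -0.56. Events of a gene share reads and are not replicates.

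The other members differed less. TPM1 had 5330 reads in siSNRPB2 and 7340 in siCtrl (log2 ratio -0.29), TPM3 24935 and 32540 (-0.21) and MYL6 11357 and 14838 (-0.21). These 3 genes lay within the middle 95% of all genes, from -0.51 to 0.53. ACTN1 had 11572 and 11891 reads (0.14) and CALD1 5505 and 4833 (0.36), also within that range. For TPM1 the value depended on the event: its 5 events with at least 100 reads on average ran from -0.29 to 0.25, and the sum over all events gave -0.13. For ACTN1 the 6 events ran from -0.16 to 0.14, with 0.04 for the sum. The 4 CALD1 events ran from -0.04 to 0.76, the highest for the 86-nt exon.

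**Figure D3:**
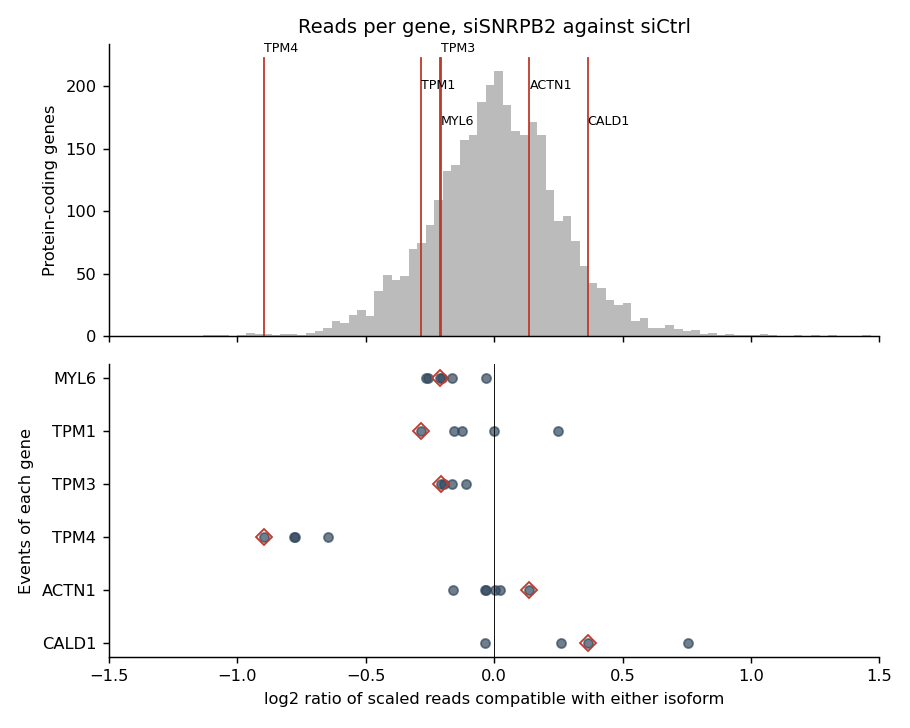
Top, number of protein-coding genes (y axis) by log2 ratio of scaled reads, siSNRPB2 over siCtrl (x axis, values beyond 1.5 drawn at the edge), with the 6 members as red lines; bottom, the ratio of each event with at least 100 reads on average (points) and of the deepest event (open diamonds). TPM4, at -0.90, lies apart from the other members, which lie between -0.29 and 0.36.

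Per length, by compatible reads on the deepest event, TPM4 had the highest value of the members in both files and CALD1 the lowest. In RPM per kilobase of the deepest event's exons (RPKM), TPM4 had 8229 in siCtrl and 4420 in siSNRPB2. TPM3 had 3433 and 2972, MYL6 2325 and 2011, ACTN1 1405 and 1545, TPM1 845.0 and 693.3, and CALD1 477.3 and 614.3. By this measure the order of the 6 genes was the same in both files. With 1 value per group, neighbours in the order cannot be set against a spread. Reads that fit neither isoform are left out, and their share on the deepest event differed by gene. It was 67.8% in siSNRPB2 and 68.2% in siCtrl for MYL6, against 27.1% and 24.7% for TPM4. The order may therefore differ with these reads counted. It also depends on the event. The TPM4 93-nt and TPM1 downstream 76-nt exons both have flanking exons of 76 and 63 nt. On these events TPM1 had 4763 compatible reads in siCtrl and 4216 in siSNRPB2, against 2207 and 1245 for TPM4. On that TPM4 event 81.4% of reads in siCtrl fit neither isoform, against 18.5% on the TPM1 event. The shares that follow rest on the deepest event of each gene and have the same limit. Among the 3 tropomyosin genes measured, TPM4 made up 65.8% of the sum in siCtrl and 54.7% in siSNRPB2, TPM3 27.4% and 36.8%, and TPM1 6.76% and 8.57%. The sum itself was 12507 in siCtrl and 8085 in siSNRPB2.

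**Figure D4:**
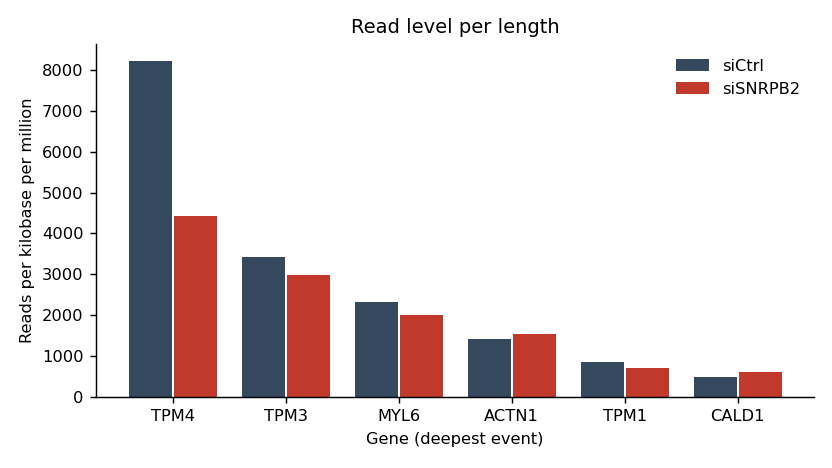
RPKM (y axis) on the deepest event of each gene in siCtrl (blue) and siSNRPB2 (red), 1 value per group and no error bar. TPM4 is highest in both files, at 8229 in siCtrl and 4420 in siSNRPB2.

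Other genes of the actomyosin system were described from a list of 66, of which 57 had events. Of their 153 tested exons, 9 were called lower and 7 higher, no larger a share than the 7.62% and 7.12% of all tested exons, so the calls named next are no result about the list. Non-muscle myosin II genes held 5 of the lower calls and 1 of the higher among 22 exons, against 7.62% and 7.12% of all tested exons, and 2 of the 5 are overlapping forms of 1 exon. The lower calls included 2 exons of MPRIP, a RhoA- and myosin phosphatase-interacting protein (160 nt, ψ 0.55 in siSNRPB2 and 0.78 in siCtrl, without a skipping read; 63 nt, 0.25 and 0.35). The overlapping forms were in PPP1R12A, the targeting subunit of myosin phosphatase (0.08 and 0.22 for 132 nt, 0.17 and 0.35 for 168 nt). The 168-nt form had 71 inclusion and 7 skipping reads in siSNRPB2 against 177 and 16 in siCtrl. Inclusion reads were nearly the same part of its informative reads in both files. The remaining lower call was a 261-nt exon of the kinase ROCK2 (0.31 and 0.53). A 207-nt exon of myosin light chain kinase, MYLK, was higher (0.53 and 0.18, with 0 and 1 skipping reads).

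Among 47 exons of actins and filament-binding genes, 1 was called lower by ψ, a 24-nt exon of FLNA, an actin cross-linker (0.47 and 0.65). It had 538 inclusion and 28 skipping reads in siSNRPB2 against 1058 and 75 in siCtrl. By informative reads alone its inclusion share was not lower in siSNRPB2, so the direction depends on the measure. None of 25 exons of stress fibre scaffolds was called in either direction. Over all tested exons, 7.62% were called lower and 7.12% higher, the background for each count in this paragraph. Of 17 exons of unconventional myosins, an 81-nt exon of MYO5A was lower by ψ (0.22 and 0.49). A 48-nt exon of MYO9B was higher (0.98 and 0.35, without a skipping read). MYO5A had 26 inclusion and 2 skipping reads in siSNRPB2 against 57 and 14 in siCtrl. On these few reads its inclusion share of informative reads was higher in siSNRPB2, so this direction too depends on the measure.

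RNA-binding proteins known to regulate tropomyosin exons had 42 tested exons, 2 called lower and 3 higher, which is near or below the 7.62% and 7.12% of all tested exons. RBFOX2 had a 40-nt exon at ψ 0.76 in siSNRPB2 and 0.97 in siCtrl, with 35 skipping reads against 3. PTBP1 had a 57-nt exon at 0.23 and 0.34, with 250 inclusion and 11 skipping reads in siSNRPB2 against 529 and 21 in siCtrl. Inclusion reads were nearly the same part of its informative reads in both files, so this difference depends on the measure. The higher calls were in PTBP2 (34 nt, 0.97 and 0.15), HNRNPH1 (138 nt, 0.36 and 0.09) and MBNL1 (36 nt, 0.88 and 0.63). The MBNL1 exon had 150 inclusion and 1 skipping reads in siSNRPB2 against 143 and 0 in siCtrl. Its difference therefore does not show in informative reads alone.

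By reads, 32 of 50 genes of this list with at least 100 reads on average had a log2 ratio below 0 and 18 above. Their median was -0.20, against 0.01 for all 3341 genes with at least 1000 reads. These medians rest on different read minimums, and the share of all genes below 0 was not computed. The counts are therefore no result about the list. The lowest were MYH10, a non-muscle myosin heavy chain (-0.60), QKI, an RNA-binding protein (-0.58), and SORBS3 (-0.57). The highest were MBNL2, a splicing regulator (1.09), PTBP2 (0.66) and LIMA1, an actin-bundling protein (0.49). Of the 37 genes of the list with at least 1000 reads, 0 were at least 1.5-fold lower and 1, MBNL2, at least 1.5-fold higher.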

How the data were processed

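Per the labels, 4 libraries of total RNA were made from the cells with a stranded kit. STAR 2.7 and hg38 are named in the submitters' processing notes. The authors estimated inclusion with MISO (per the file headers) and ψ was deposited as a fraction with its interval, beside the reads in each class of compatibility. The MISO version, the level of the interval and any merging of libraries are not stated in the sources used here. The deposited comparison holds the ψ difference, a signed score, and the Bayes factor, a ratio of evidence.

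Events were assigned to GENCODE release 29 genes by a shared exon boundary (97.92% of events). For each exon the event with the most informative reads was used, with 20 such reads or more in both files; a call needed a Bayes factor of 10 and a ψ difference of 0.1 or more. Reads per gene were log2 ratios with a pseudocount of 1. Per-length levels divide by the flanking exons of the deepest event, with the skipped exon where its mean ψ was at least 0.5. Shares have exact (Clopper-Pearson) 95% intervals; a count of 0 allows 3 counts. The shallowest listed event had 20 reads. The read ratio was tested on simulated data with known changes and counting error as the only noise. This checks the calculation and not how well the proxy follows RNA level.

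Members and gene lists were chosen with earlier results of these data known. The rule named all members, each exon called or with ψ of 0.05 to 0.95 in either file, known alternative exons, called exons of the wider list and its 3 highest and lowest genes by reads. Some called exons of the wider list are not reported here. No likeness of pattern was computed, since each gene has 2 values. Splice site sequences need a genome and were not analysed here. Tables were made with pandas 2.3.3 and numpy 2.4.6 under Python 3.11.15, intervals with scipy 1.17.1 and plots with matplotlib 3.10.9.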

Additional observations from a re-analysis of the deposited data

Results flagged for a closer look

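Some reads on an event fit neither isoform and were not counted as informative or compatible reads. For TPM4 their share of all reads on its events was 24.8% in siSNRPB2, above the 23.1% in the control file, with exact 95% intervals of 24.5 to 25.1 and 22.9 to 23.3 that cover counting error only, and reads shared by events count under each. Over all events of the files these shares were 61.2% and 59.1%. The intervals of ACTN1, TPM1 and TPM3 overlapped between the files. The share was lower in siSNRPB2 for MYL6 (77.65% against 78.03%) and for CALD1 (38.3% against 41.8%).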

How the results depend on the processing

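The call of the MYL6 45-nt exon held with at least 10 or 50 informative reads and with a minimum difference of 0.05. It also held with a Bayes factor of at least 100, intervals that do not overlap and both boundaries shared. Requiring at least 1 skipping read in either file kept the call as well. The call was lost with a minimum difference of 0.2 (0 member exons called higher). The ψ difference of this exon was 0.262 from informative reads with inclusion reads halved. No member exon was called lower under any of these settings. Over all exons, requiring an skipping read left 868 called lower and 796 higher, and at least 50 informative reads left 883 higher. The TPM4 log2 ratio ran from -0.906 to -0.818, the latter with reads summed over all events; the cause was not tested. ACTN1 ran from 0.038 to 0.137, TPM1 from -0.295 to -0.13, TPM3 from -0.217 to -0.171, MYL6 from -0.219 to -0.187 and CALD1 from 0.354 to 0.365. No paired analysis was possible because each file holds 1 value per group and no replicate; for the same reason no replicate could be left out. Informative reads limit CALD1 (94 to 243 per tested exon) more than the other members.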
